A study of Mus musculus with 12 samples.

Results

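Central spindle and cytokinesis genes are described here in the kidneys of mice given the polymyxin antibiotic colistin or saline. The set holds 9 genes, Prc1, Anln, Kif23, Kif20a, Racgap1, Ect2, Aurkb, Birc5 and Incenp, read by 19 of the 45281 probes on the array. Probes were taken by the array's gene symbol, and Knsl5, an older name of Kif23, was included. The genes were chosen by their difference between colistin and saline kidneys in these same arrays, so that difference is given as a description and supports nothing. Whole-kidney RNA came from 12 male C57BL/6 mice aged 10 weeks. The 6 control mice received 0.1% saline 2 times daily, and the 6 treated mice received colistin at 16 mg/kg per day, split over 2 doses; exposure was 72 hours for the series. Illumina MouseWG-6 v2 BeadChips, single-colour arrays that read each transcript with beads carrying 1 probe sequence, gave 1 intensity per probe and mouse. Each of 2 BeadChips carried 3 mice of each group. Saline mice held positions 1, 3 and 5 of each BeadChip and colistin mice positions 2, 4 and 6, so position and treatment cannot be told apart.

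When a cell divides, antiparallel microtubules between the separating chromosomes are bundled into the central spindle. PRC1 crosslinks them, and centralspindlin, a complex of the kinesin KIF23 and RACGAP1, binds there and recruits the RhoA activator ECT2 to place the contractile ring, which anillin (Anln) scaffolds. The chromosomal passenger complex of Aurora B kinase (Aurkb), survivin (Birc5), INCENP and borealin moves from the centromeres to the same midzone, carried there in part by the kinesin KIF20A. Few cells of a healthy adult kidney are dividing, and tubule cells are known to re-enter the cell cycle after injury.

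Genes of late mitosis are known to be held in check through the cell cycle homology region (CHR), a short promoter motif bound by MuvB complexes, often with CCAAT boxes bound by NF-Y nearby. Promoter windows from RefSeq (GRCm38.p6, from 250 bases before to 50 after the annotated start, first listed start of each gene) were matched for 6 of the 9 genes. They were searched on both strands for TTTGAA or TTCGAA (CHR), for CCAAT, and for 4 E2F-type motifs, TTTCCCGC, TTTGGCGC, TTTCGCGC and TTTGCCGC; no letters are shared between CHR and CCAAT matches in the stretches shown. The 100 bases around the start are printed 5′ to 3′ on the gene's strand, beginning 60 bases before it, for Prc1, Anln and Kif23, which hold matches and a probe with higher signal in colistin mice, for Birc5, which has such probes and no match, and for Racgap1, which holds matches and was not detected. Capitals mark CHR and CCAAT matches, and TTCAAA and ATTGG are those motifs on the opposite strand.
Prc1, chr7:80294391-80294490, plus strand: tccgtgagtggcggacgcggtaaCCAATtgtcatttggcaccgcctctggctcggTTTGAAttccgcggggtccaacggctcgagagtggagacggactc
Anln, chr9:22389167-22389266, minus strand: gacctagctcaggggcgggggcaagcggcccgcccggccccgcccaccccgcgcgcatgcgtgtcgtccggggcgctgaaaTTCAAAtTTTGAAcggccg
Kif23, chr9:61946760-61946859, minus strand: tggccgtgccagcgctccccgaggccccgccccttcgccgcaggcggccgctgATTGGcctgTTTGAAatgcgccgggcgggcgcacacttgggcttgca
Racgap1, chr15:99651617-99651716, minus strand: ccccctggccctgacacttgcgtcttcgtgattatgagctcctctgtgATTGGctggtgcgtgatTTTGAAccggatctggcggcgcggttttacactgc
Birc5, chr11:117849177-117849276, plus strand: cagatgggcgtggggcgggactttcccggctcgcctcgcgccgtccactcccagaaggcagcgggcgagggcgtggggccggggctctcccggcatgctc

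A CHR match was present in 5 of the 6 windows (Prc1, Anln, Kif23, Racgap1 and Ect2), against 19.4% of 27025 windows in all, and a CCAAT match in 4 of the 6 (Prc1, Kif23, Racgap1 and Ect2), against 37.9%. Those 4 windows held both motifs, as did 7.70% of all windows. No E2F-type match was found in the 6 windows, and 2.32% of all windows had one. In Prc1 the CCAAT match began at base -37 and the CHR match at base -5 from the start; in Kif23 the inverted CCAAT match began at -7. The pair of Anln matches lay after the start, on opposite strands. Racgap1 and Ect2 also carried the motifs, and their probes gave no signal above background. Silent probes do not show that a transcript is absent, so whether the motifs go with expression was not tested. The matches describe letters and show no binding.

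**Figure D1:**
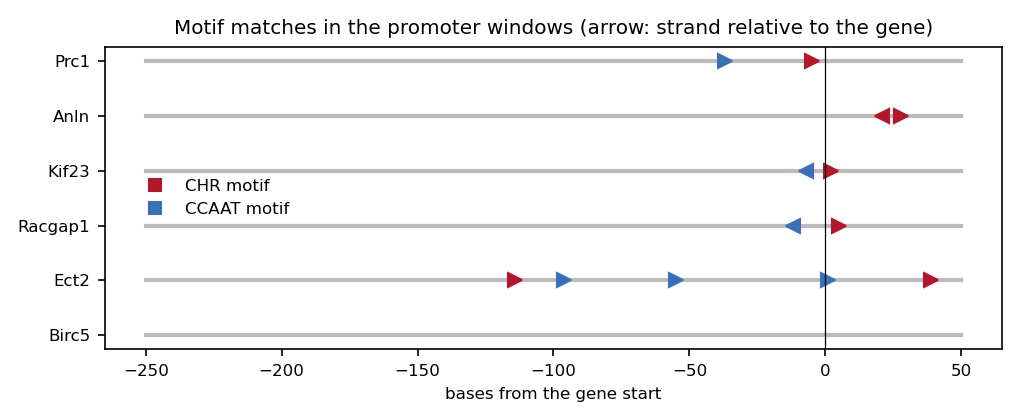
Position of CHR and CCAAT motif matches in the 6 promoter windows, in bases from the annotated gene start (x axis), 1 line per gene; arrows give the strand relative to the gene. Of the 6 windows 5 hold a CHR match, and the Birc5 window holds neither motif.

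Whether a probe could report at all differed within genes. A probe counted as above background at a detection p under 0.01 and was kept when this held on at least 4 of the 12 arrays, whatever the group. Of the 19 probes, 9 were kept, reading 5 genes: Prc1 (1 of 2 probes), Anln (1 of 3), Birc5 (3 of 3), Kif23 (3 of 4, of which 1 is named Knsl5) and Incenp (1 of 1). The Aurkb probe was above background on 2 arrays. The other 9 probes were above background on no array: those of Kif20a (1), Racgap1 (2) and Ect2 (2), and further probes of Anln (2), Prc1 (1) and Kif23 (1). Their raw intensities lay between 83.6 and 100.8, the groups overlapped at all 9, and their log2 differences lay between -0.10 and 0.08. Silence of these probes does not show absence of the transcript: the array's probe for Rhoa, the GTPase that drives the contractile ring, and that for the actin regulator Cfl1, transcripts common to nearly all cells, were also above background on 0 of 12 arrays.

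Signal at 8 of the 9 kept probes was higher on average in colistin mice, and all 6 colistin mice lay above the saline mean at each of those 8. How often either held over all kept probes was not counted. In limma's fit over all 16179 kept probes, 6 of the 9 passed an adjusted p under 0.05 with higher signal, from Prc1, Anln, Birc5 and Kif23, where 0.321% of all kept probes did. Calls over all probes, 74 in both directions, moved to 330 without saline mouse 1 and to between 38 and 48 without saline mouse 4 or 6 or colistin mouse 2, 3, 5 or 6. None of the 9 passed with lower signal (1 had an unadjusted p under 0.05), against 0.136% of all probes. At the same 6 probes every colistin mouse lay above every saline mouse, which held for 0.6% of all kept probes, and none had every colistin mouse below every saline mouse (0.402% of all). The median log2 difference was 0.92 over the 9 probes and 0.01 over all kept probes. For a probe kept only through its colistin arrays the filter favoured a difference, and nothing is read from these counts because the contrast chose the genes. In whole-kidney RNA, more cells carrying a transcript and more of it per cell cannot be told apart.

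The microtubule bundler Prc1 (chromosome 7) had the largest log2 difference of the set in the fit with an offset of 16; with an offset of 1 it was 2.14, below the 2.38 of Anln. At the kept probe, ILMN_2757125, above background on all 12 arrays, the normalized log2 signal ran from 5.03 (median 5.89) to 6.02 in saline mice and from 7.02 (median 7.49) to 7.98 in colistin mice, and raw intensities from 106 to 139 and from 233 to 351. The groups were separated by about the width of the colistin range, and the lowest saline value was that of saline mouse 4. Colistin mice averaged 1.77 ± 0.19 (SE, n = 6 and 6) higher on the log2 scale, a 3.42-fold difference. The second Prc1 probe was above background on no array.

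The kinesin arm of centralspindlin, Kif23 (chromosome 9), gave probes that disagreed. At ILMN_2923463, the probe whose annotation names the Kif23 mRNA, log2 signal ran from 4.71 (median 4.83) to 5.30 in saline mice and from 5.53 (median 5.59) to 5.99 in colistin mice. Those ranges did not overlap, 5 of the 6 colistin mice lay within 0.06 of each other, and colistin mouse 3 stood above them. The difference was 0.73 ± 0.12 (SE), or 1.66-fold. At ILMN_1220121, named Kif23 with no transcript in its annotation, log2 signal ran from 5.29 (median 5.51) to 6.36 in saline mice and from 5.96 (median 6.51) to 7.17 in colistin mice. Here the groups overlapped through saline mouse 2, the highest control, and colistin mouse 4, the lowest treated mouse; the difference was 0.90 ± 0.20 (SE) and was not called. The probe named Knsl5, ILMN_1250752, also without an annotated transcript, went the other way, with 6.43 (median 6.63) to 6.78 in saline mice and 6.20 (median 6.25) to 6.47 in colistin mice. Its groups overlapped, its difference was -0.31 ± 0.09 (SE) and it was not called, and without a quantile step the difference was -0.08, where all kept probes had a median of 0.20. A further probe, written KIF23, was above background on no array. Which transcripts these probes read was not tested, since no probe sequences were used here.

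RACGAP1, the partner of KIF23, and the activator ECT2 that it recruits could not be followed. The 2 Racgap1 probes had log2 differences of 0.04 ± 0.04 (SE) and 0.03 ± 0.03 (SE), and the 2 Ect2 probes 0.02 ± 0.04 (SE) and -0.10 ± 0.06 (SE), all at background level, in a fit without the detection filter. Kif20a, the kinesin that carries passenger proteins, was at -0.10 ± 0.06 (SE) at a probe above background on no array.

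Among the chromosomal passenger genes, all 3 Birc5 probes (chromosome 11; survivin, the subunit that docks the complex on chromosomes) separated the groups. At ILMN_2632712 log2 signal ran from 4.77 (median 5.23) to 5.51 in saline mice and from 5.86 (median 6.00) to 6.59 in colistin mice, a difference of 0.95 ± 0.16 (SE). The probes ILMN_2681241 and ILMN_2603699 gave 1.01 ± 0.19 (SE) and 0.92 ± 0.15 (SE), and the 3 folds were 1.94, 2.01 and 1.89. Birc5 probes read the same RNA in the same mice and are not replicates. In colistin mice 3 and 6 each of the 3 probes was higher than in the other 4 treated mice. The call at ILMN_2681241 was lost when saline mouse 4 or 6 or colistin mouse 1, 3 or 6 was left out, with differences of 0.90 to 1.01, and all 3 Birc5 calls were lost in the fit without the detection filter, which tests 45281 probes.

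Incenp (chromosome 19), the scaffold of the passenger complex, was detected above background in 4 of 6 colistin mice and in 0 of 6 saline mice. Log2 signal ran from 4.35 (median 4.61) to 4.80 in saline mice and from 4.63 (median 4.87) to 5.34 in colistin mice, with overlap. With the saline mice set at the lowest detected signal of their arrays, the colistin mean was 1.04-fold higher. That mean includes colistin mice 4 and 6, not above background, so 1.04 is no lower bound. In the fit the Incenp difference was 0.30 ± 0.12 (SE) on the log2 scale, with the saline mean at background level. The probe was not called. Aurkb (chromosome 11), the kinase of the complex, had a probe detected in 2 of 6 colistin mice, 3 and 6, and in 0 of 6 saline mice. Its values of 4.66 to 4.97 in colistin mice lay above the 4.25 to 4.46 of saline mice without overlap, but at this signal no fold can be given.

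Anln (chromosome 9), which encodes the ring scaffold anillin, had 1 reporting probe of 3. At ILMN_2595597 log2 signal ran from 4.67 (median 4.87) to 5.51 in saline mice, of which 3 were above background, and from 6.24 (median 6.63) to 6.86 in colistin mice, of which 6 were. The gap between the groups was wider than the range of the colistin mice. The difference was 1.64 ± 0.15 (SE), or 3.12-fold; since 3 saline arrays were not above background, the saline mean rests partly on background signal. The size depended on the background step: without background correction the log2 difference at this Anln probe was 0.69, and with an offset of 1 it was 2.38.

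**Figure D2:**
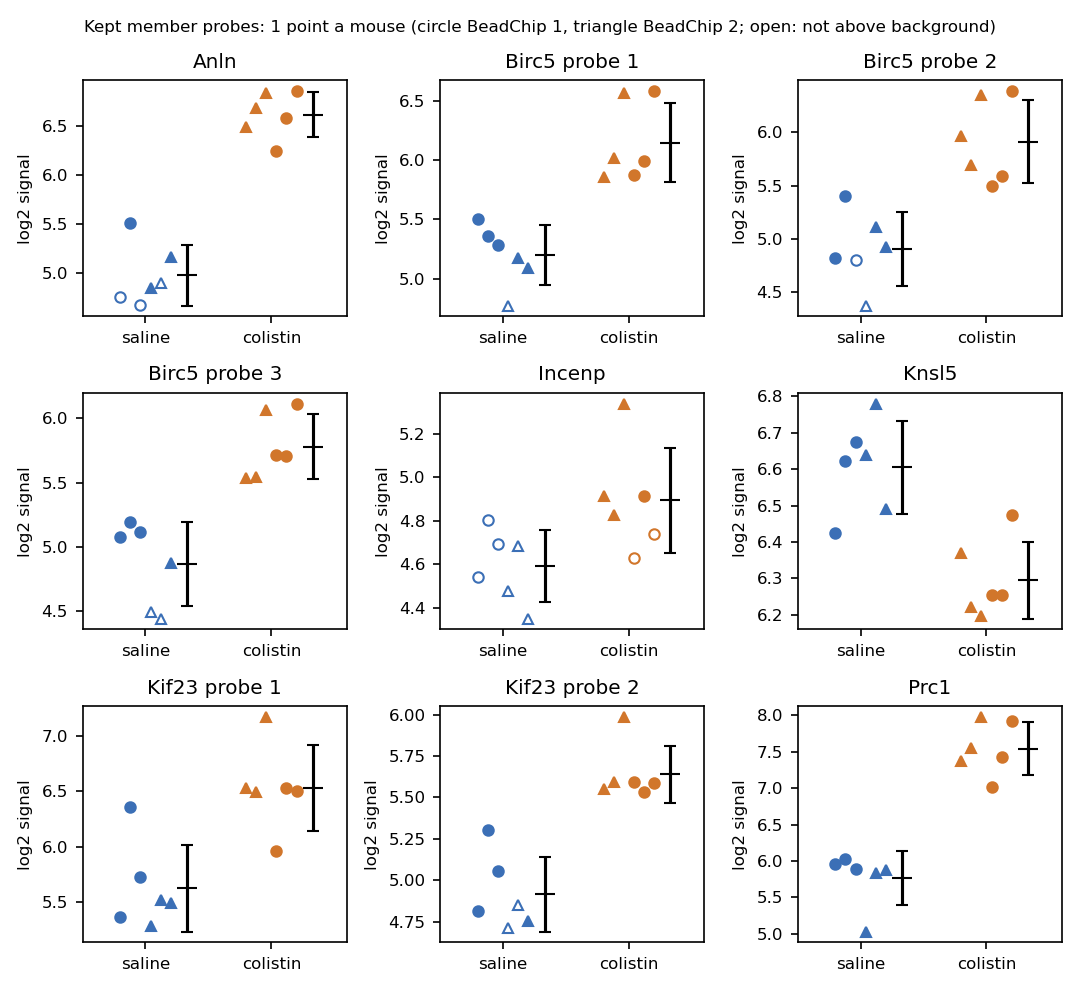
Normalized log2 signal (y axis) of the 9 kept probes in 6 saline and 6 colistin mice, 1 point a mouse, circles for BeadChip 1 and triangles for BeadChip 2, open where not above background; bars give the mean and SD. The groups do not overlap at 6 probes and overlap at Incenp, Knsl5 and Kif23 probe 1 (ILMN_1220121); Birc5 probes 1 to 3 are ILMN_2632712, ILMN_2681241 and ILMN_2603699.

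**Figure D3:**
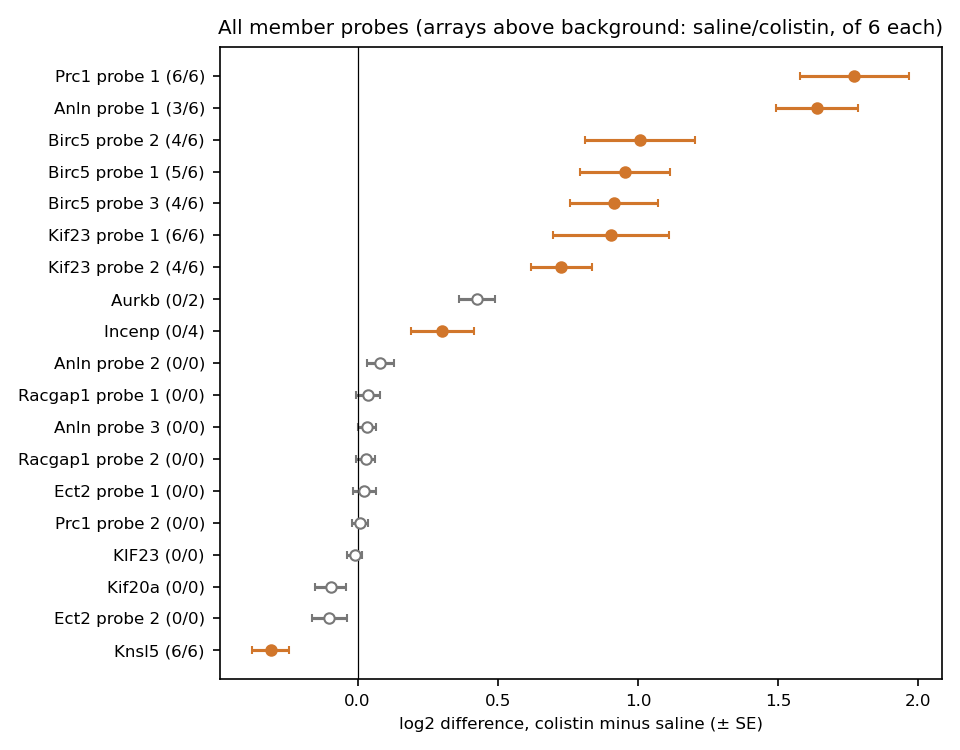
Log2 difference, colistin minus saline (x axis, with SE, fitted without the detection filter), for all 19 probes, with the arrays above background in saline and colistin mice in brackets; filled points are kept probes. The 9 probes above background on no array lie between -0.10 and 0.08, and Prc1 probe 1 (ILMN_2757125) lies at 1.77.

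The mice themselves ranked in part alike over the probes, of which 3 read Birc5 and 3 Kif23 and are not separate agreements. Within the colistin group, mouse 3 had the highest value at 4 of the 9 kept probes and mouse 6 at 5, while mouse 4 had the lowest at 5. Mouse 3 was also the lowest at Knsl5 (6.20) and mouse 6 the highest there (6.47). Without Knsl5, mice 3 and 6 were each highest at 4 of 8 probes. Mouse 6 was not above background at Incenp (4.74). Averaged over the 8 probes other than Knsl5, the log2 difference from the saline mean was 1.43 in colistin mouse 3, 1.23 in mouse 6, between 0.92 and 0.94 in mice 1, 2 and 5, and 0.71 in mouse 4. Among saline mice, mouse 2 was highest at 7 of the 9 and mouse 4 lowest at 5, with averages of 0.39 and -0.36. Probes of one mouse share an array, so these ranks describe the arrays as much as the kidneys.

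Some arrays stood apart. Saline mouse 2 had the highest first principal component over all kept probes (64.6, against at most 28.7 elsewhere), and saline mouse 5 the dimmest array (95th percentile of raw intensity 475, against 752 to 949). Without these 2 mice the difference at the reporting probe was 1.85 for Prc1 (ILMN_2757125) and 1.75 for Anln (ILMN_2595597), and 7 of the 9 probes were called, with ILMN_1220121 of Kif23 added at 1.06. That Kif23 probe was also called when saline mouse 1 or 2 or colistin mouse 4 alone was left out. All 6 proximal tubule markers, among them the uptake receptor gene Lrp2 and the phosphate transporter gene Slc34a1, were above background on 12 of 12 arrays. The proliferation markers Mki67 and Top2a were both called higher in colistin mice, Mki67 by 1.38 ± 0.14 (SE) on the log2 scale and Top2a, detected in 6 of 6 colistin mice and in 0 of 6 saline mice, by at least 1.87-fold. The Top2a probe was kept through the colistin arrays alone, so the filter favoured a difference and its call is a description. Pvalb, a marker of the distal convoluted tubule, was lower by -1.13 ± 0.19 (SE) and called, while Slc12a3, its companion on that list, was at -0.25 ± 0.20 (SE). Medians were 0.06 over 6 proximal tubule, 0.20 over 2 thick ascending limb and 0.01 over 3 collecting duct genes. They were -0.20 over 3 podocyte and -0.12 over 3 erythroid genes, and none of these genes was called. Markers of 3 other cell types had median log2 differences of -0.49 over 4 endothelial, -0.48 over 5 macrophage and -0.42 over 4 fibroblast genes, none called. Within these lists Csf1r (0.15) and Col1a1 (0.01) were positive. Mean log2 levels of these lists ran from 6.18 to 7.29 in saline and 6.32 to 6.63 in colistin mice (endothelium), 5.91 to 6.49 and 5.57 to 5.99 (macrophage) and 6.06 to 6.65 and 5.71 to 6.06 (fibroblast). The lymphocyte markers Cd3e and Ms4a1 were above background on no array. The part of these cells in the differences above was not tested.

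The BeadChips were compared because the choice of genes had not used that contrast. The difference between the groups was larger in absolute size on BeadChip 2 than on BeadChip 1 at all 9 kept probes, being more negative at Knsl5 and more positive at the other 8. The share of all kept probes that did so was not counted. BeadChip 2 alone called 298 probes of the array and BeadChip 1 alone 0. Of the 9 probes, 3 read Birc5 and 3 Kif23, so they are not separate agreements. With 3 mice against 3, the difference between the groups was 2.05 ± 0.26 (SE) at Prc1 (ILMN_2757125) on BeadChip 2, larger than on BeadChip 1 by 0.55 ± 0.37 (SE). At Kif23 (ILMN_1220121) the values were 0.51 ± 0.26 (SE) and 1.30 ± 0.26 (SE), and at Anln 1.58 ± 0.22 (SE) and 1.70 ± 0.22 (SE). The test of the difference itself, limma's interaction of treatment and BeadChip, called none of the 9 (lowest adjusted p = 0.9998, lowest unadjusted p = 0.0513) and 0% of all probes, of which 412 had an unadjusted p under 0.05. The interaction at Kif23 (ILMN_1220121) was 0.78 ± 0.36 (SE), so a difference of that size between BeadChips was not resolved with 3 mice in each cell.

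Saline mice were also compared between the BeadChips. Their mean was lower on BeadChip 2 at 8 of the 9 probes, Knsl5 being the exception, by -0.53 ± 0.18 (SE) at Birc5 (ILMN_2603699) and -0.37 ± 0.26 (SE) at Prc1 (ILMN_2757125). limma called none of these (lowest adjusted p = 0.994; 1 of the 9 had an unadjusted p under 0.05) and 0% of all probes, of which 790 had an unadjusted p under 0.05. At this number of mice these values could not be told from the spread between mice. The saline means also enter the interaction, so its values and these are not separate observations. At Birc5 (ILMN_2632712) the colistin means were 6.15 on both BeadChips, and the saline means 5.38 on BeadChip 1 and 5.01 on BeadChip 2. At Anln the saline means were 4.98 and 4.97. How many of all kept probes had a lower saline mean on BeadChip 2 was not counted.

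**Figure D4:**
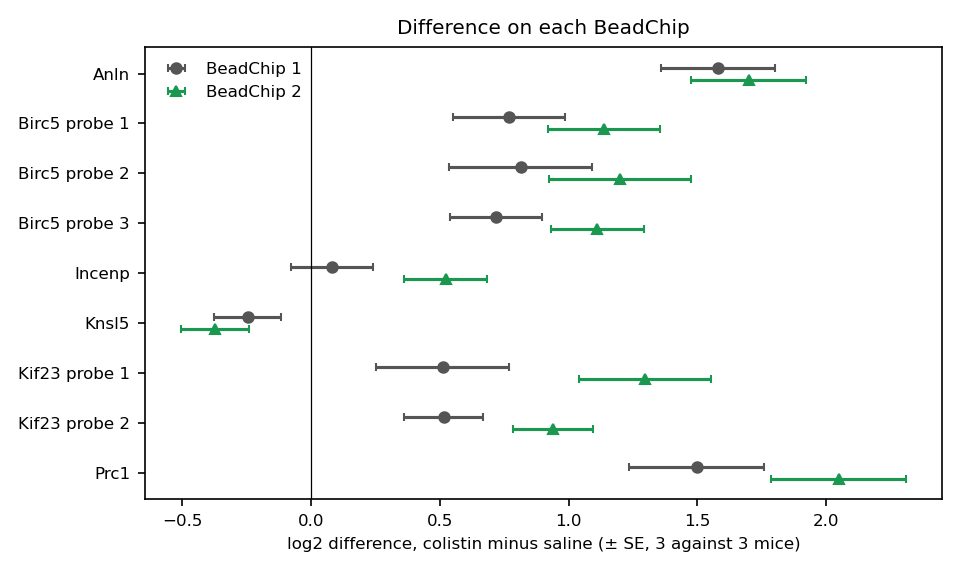
Log2 difference, colistin minus saline (x axis, with SE, 3 against 3 mice), of the 9 kept probes on BeadChip 1 (circles) and BeadChip 2 (triangles). Each probe lies farther from 0 on BeadChip 2, as Kif23 (ILMN_1220121) at 1.30 against 0.51, and no interaction was called.

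The other genes of the pathway were taken from 4 lists of 43 genes, 32 of them measured, each by its kept probe with the highest mean signal. In limma's fit 4 rose in colistin mice, where 0.321% of all kept probes were called higher, and none fell, where 0.136% were called lower. At an unadjusted p under 0.05, 1 was lower, as were 865 of the 16179 probes, and the median log2 difference was 0.09 against 0.01 over all kept probes. The lists were not tested against each other. Of 4 measured passenger partners and mitotic kinases 3 rose. Cdca8, which encodes borealin, the remaining subunit of the passenger complex, was 0.93 ± 0.13 (SE) higher on the log2 scale (limma adjusted p = 0.00490). Aurka, the spindle pole kinase Aurora A, was 0.78 ± 0.10 (SE) higher (limma adjusted p = 0.00187), and Plk1, the polo kinase that licenses ECT2 binding to RACGAP1, 0.73 ± 0.14 (SE) higher (limma adjusted p = 0.0238). These 3 probes were above background on 2, 2 and 1 of 6 saline arrays and on all 6 colistin arrays. Each was kept through its colistin arrays, so the p values are a description. A filter on all 12 arrays removes these 3 probes before testing, so the 0 pathway genes called under it say nothing about them.

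Of 6 measured central spindle microtubule genes 1 rose: Kif4, the kinesin that PRC1 brings to the midzone to set its length, stood higher by at least 1.21-fold, detected in 6 of 6 colistin mice and in 0 of 6 saline mice (limma adjusted p = 0.00595). Its probe was kept through the colistin arrays alone, so the filter favoured a difference and the p value is a description. The median of that list was -0.09. None of 11 contractile ring genes passed, with a median of 0.04. The smallest p values belonged to Diap3 (Diaph3, a formin that nucleates actin) and Sept11, a septin, at -0.28 ± 0.13 (SE). Diap3 was detected in 4 of 6 colistin and 0 of 6 saline mice, so it was kept through its colistin arrays, and its groups overlapped. In the fit the Diap3 difference was 0.39 ± 0.12 (SE) on the log2 scale, with the saline mean at background level. With saline mice set as for Incenp, its colistin mean was 1.02-fold higher, which is no lower bound. None of 11 abscission genes passed either, with a median of 0.08 and differences from -0.16 to 0.35; Pdcd6ip, the ESCRT adaptor ALIX, was at 0.35 ± 0.17 (SE) and Ist1, an ESCRT subunit, at 0.15 ± 0.10 (SE). The probes of Cep55, Bub1 and Kif14, genes known mainly from dividing cells, were above background on no array.

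**Figure D5:**
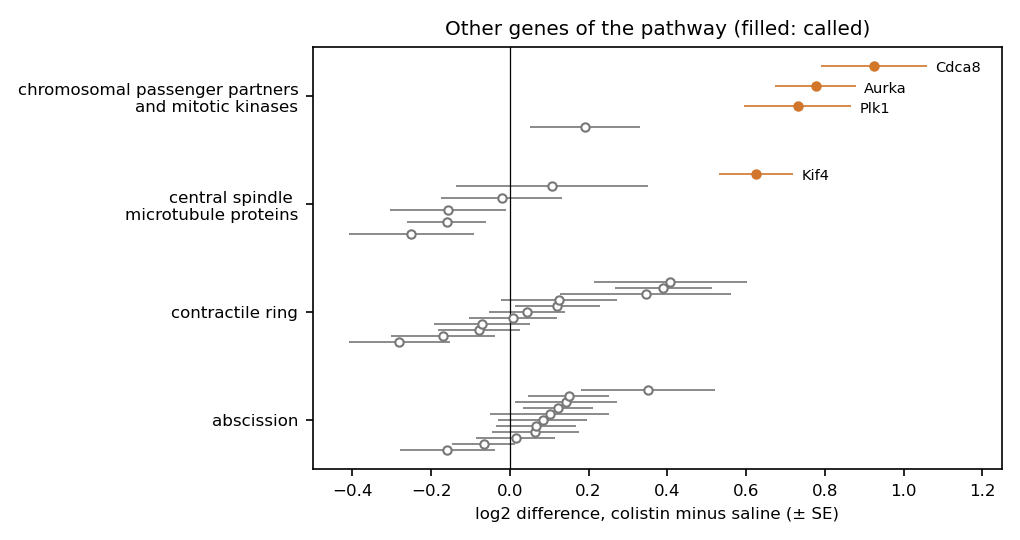
Log2 difference, colistin minus saline (x axis, with SE), of the 32 measured pathway genes in 4 lists, 1 point a gene, filled where called. Cdca8, Aurka, Plk1 and Kif4 are the 4 called genes; no gene of the contractile ring or abscission list was called.

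To see which transcripts varied from mouse to mouse as these genes did, each group's mean was subtracted and every kept probe was correlated with the mean profile of the 5 measured genes over 12 arrays. Outside the set and the lists, the closest were Cdc20 (r = 0.91), the activator of the anaphase-promoting complex, Lig1 (r = 0.91), a DNA ligase of replication, LOC640739 (r = 0.90), Limk2 (r = 0.89), a kinase of actin regulators, and Dnmt1 (r = 0.89), the maintenance DNA methyltransferase. Their log2 differences between the groups were 1.13, 0.23, 0.94, -0.17 and 0.20 in the same order. The order depended on the Knsl5 probe, which stands for Kif23 in the profile: with another Kif23 probe in its place, Nans (r = 0.91) and Timp1 (r = 0.88) lay closer than Limk2 (r = 0.87), LOC640739 (r = 0.86) and Dnmt1 (r = 0.83). Within the set, the reporting Prc1 probe had r = 0.93 with the profile, of which it is a part, and Knsl5, also a part, 0.12. These are the highest of 16179 values over 12 arrays, the probes of one mouse share an array, and the values are a description.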

How the data were processed

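The authors deposited mean bead intensity per probe on a linear scale with a detection p-value per probe and array, per the file headers, neither normalized nor background-subtracted (lowest value 74.7), and a table of normalized intensity used as an alternative. Per the submitters' processing notes, the tools were GenomeStudio and Partek; the sources used here give no settings. neqc (limma 3.58.1, R 4.3.3) removed background and matched the arrays by quantiles (offset 16, which compresses folds of dim probes). Arrays detected 14661 to 16154 probes; their number limits the precision. Groups were compared per kept probe with lmFit and eBayes, two-sided, with Benjamini-Hochberg adjustment over 16179 probes; called means an adjusted p under 0.05. Mice are taken as separate animals. The fit was tested on simulated data. Symbols were updated through RefSeq (GRCm38.p6). Members, lists and alternatives were chosen with earlier results of these data known. Named were every member with all its probes, up to 4 called genes of each pathway list or otherwise the 2 with the smallest p, and the 5 closest genes; Rhoa, Cfl1, Cep55, Bub1, Kif14 and single markers were named after their values were seen. For probes undetected in all saline mice, the fold given sets each saline array at its lowest signal among detected probes, or at the probe itself if that is higher. It is a lower bound only where the probe was detected in all 6 colistin mice. Gene-level tables were not used, since they average probes. Alternatives changed the background correction, normalization, source of values, offset, filter, BeadChip, replicate number, test, threshold and mice.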

Additional observations from a re-analysis of the deposited data

Results flagged for a closer look

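Of 18 groups of 6 values (9 kept probes in 2 groups), 2 held a mouse far from the rest of its group by Dixon's criterion, which chance exceeds in about 5% of groups. Saline mouse 4 had a Prc1 (ILMN_2757125) log2 signal of 5.03, where the other saline mice lay between 5.84 and 6.02; without that mouse the difference between the groups was 1.62. Colistin mouse 3 had a Kif23 (ILMN_2923463) log2 signal of 5.99, where the other colistin mice lay between 5.53 and 5.59; without it the difference was 0.66.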

How the results depend on the processing

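The 6 called probes of the set and the 4 called pathway genes, all higher in colistin mice, among 74 probes called in all, became 2 and 2 of 25 without background correction, 1 and 0 of 27 when probes had to be above background on all 12 arrays, 0 and 0 on BeadChip 1 alone, where no probe of the array was called, and 2 and 3 of 27 at an adjusted p under 0.01. The filter on all 12 arrays leaves 3 probes of the set and none of the 4 called pathway genes to test, and BeadChip 1 alone has 3 mice a group. On BeadChip 2 alone 7 and 4 were called, among 298 probes in all. In the other alternatives, the authors' normalized table (6 and 4) among them, 4 to 7 and 3 to 4 were called, and the counts ranged from 5 to 7 and from 3 to 4 with each mouse left out. Without the detection filter the 4 called probes of the set included Aurkb. Without a quantile step all kept probes shifted by a median of 0.20, and 7 probes of the set were called. No gene of the set or the lists was called lower, and no difference at the 9 kept probes of the set changed sign; the signs of list genes were not followed. Without background correction the log2 differences of the Birc5 probes were 0.32 to 0.39, and with an offset of 1 they were 1.38 to 1.66. The BeadChip interaction and the saline BeadChip contrast called 0 of the set in each of 5 alternatives. With the replicate block 5 and 3 were called, of 36 probes in all; same-numbered mice did not deviate together (correlations from -0.26 to 0.12, with 1 of 6 over 0.1), and 0 of 12 arrays correlated best with their own number. Probes near background limit what can be said of Racgap1, Ect2, Kif20a, Aurkb and Incenp.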
